A study of Mus musculus with 8 samples.

Results

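AMP-activated protein kinase (AMPK) and the kinases that switch it on were followed through the transcripts of 8 genes in mouse liver: the catalytic subunit genes Prkaa1 and Prkaa2, the scaffold subunit genes Prkab1 and Prkab2, the nucleotide-binding subunit genes Prkag1 and Prkag2, and the upstream kinase genes Stk11 and Camkk2. The genes were chosen by symbol from the 17810 genes of the deposited count table, with earlier results of these data known. All 8 were found in it. The study asked how loss of miR-33 in hepatocytes alters the liver in fatty liver disease. RNA-Seq was available from whole livers of 4 WT mice and 4 hepatocyte-specific miR-33–knockout (HKO) mice, all males of 5 months, with 1 library per liver. All 8 mice had been on CD-HFD, a high-fat diet that lacks choline, since they were 8 weeks old and for 3 months, so no chow-fed liver enters these comparisons. HKO mice carried floxed miR-33 alleles and a Cre transgene under the albumin promoter (AlbCRE in the labels), which is active in hepatocytes, while WT mice were littermates. The livers also held blood vessel, immune, stellate and bile duct cells, in which the promoter is not meant to act, and the study names its effect in cholangiocytes as still to be checked.

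AMPK is a complex of 1 α, 1 β and 1 γ subunit that senses the energy state of the cell. AMP binds the γ subunit, which favours phosphorylation of the α subunit by liver kinase B1 (LKB1, encoded by Stk11) or, when calcium rises, by CaMKK2, while the β subunit holds the complex together. In liver the active enzyme restrains fatty acid and cholesterol synthesis and favours fatty acid oxidation, largely by phosphorylating enzymes, so the transcript levels given here describe how much message for the complex was present and not its activity.

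The α subunit is a known target of miR-33, whose seed (bases 2 to 8) pairs with complementary words in the 3'UTR of a message. The mature sequence from RefSeq (GRCm38.p6, chr15:82198127-82198147, plus strand) is shown first, with the seed in capitals, and each match in a longest annotated 3'UTR of the 8 genes follows, read 5′ to 3′ on the strand of the message, with the matching bases in capitals and the flanking bases in lower case.
mmu-miR-33-5p: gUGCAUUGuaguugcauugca
Prkaa1, base 2299 of 2967: gtaaagggagtCAATGCAAatgatttttaa
Prkaa2, base 3925 of 6218: tggactactggAATGCAAaactgaaaaca
Prkaa2, base 5769 of 6218: cttttaaaatgAATGCAAttattagcagt
Prkab2, base 615 of 4007: catggcccagtAATGCAAaactcactggg

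The words searched were CAATGCA, which pairs with bases 2 to 8, AATGCAA, which pairs with bases 2 to 7 and is followed by A, and CAATGCAA, which holds both. Only the strand of the message was searched, and overlapping words were counted as 1 match. The match in Prkaa1 covered 8 bases and lay at chr15:5181231-5181238 on the plus strand of GRCm38. The 2 matches in Prkaa2 covered 7 bases each, at chr4:105032161-105032167 and chr4:105030317-105030323 on the minus strand, and the match in Prkab2 covered 7 bases at chr3:97670420-97670426 on the plus strand. Prkab1, Prkag1, Prkag2, Stk11 and Camkk2 held none of these words in any annotated 3'UTR. A match was thus found in 3 of the 8 genes. Among all 15457 listed genes whose annotated 3'UTR has 50 bases or more, 2628 (17%) held a match and 356 (2.3%) held one over 8 bases. The share rose with length. Of genes with a 3'UTR of 2739 to 3759 bases, as Prkaa1 has, 33.0% held a match, and of genes with longer ones, as Prkaa2 and Prkab2 have, 47.3% did. A match describes these letters only and does not show that miR-33 binds there.

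None of the 8 genes differed between the genotypes at an adjusted p under 0.05, when edgeR's quasi-likelihood p-values were adjusted by Benjamini-Hochberg over all 12395 genes tested. The 8 genes all passed the expression filter. In the same test 624 of the 12395 genes were called, which is a background of 5.03%, so a count of 0 among 8 lies close to what the background gives and is not a result about these genes as a group. DESeq2 and limma-voom also called 0 of the 8. At an unadjusted p under 0.05 edgeR had 2 of the 8 genes, Prkab1 and Prkab2, as had DESeq2 and limma-voom, beside 19.8% of all genes in edgeR. The median log2 fold change (HKO over WT) of the 8 genes was 0.00, with 4 higher and 4 lower, and that of all tested genes was 0.01. Because whole livers were measured, fewer cells of a type and less RNA per cell cannot be told apart in any of these values.

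Levels are given as CPM, the estimated counts of a gene brought to one library total by the trimmed mean of M values (TMM). The livers held 12174339 to 18319736 counts in WT mice and 12509201 to 18735785 in HKO mice, so that 3 counts, taken as the floor, stood for 0.16 to 0.246 CPM. The genotypes were separated on the first principal component (36.2% of the variance). The headers of the count columns end in a number after the letter S, from 55 to 58 for HKO and from 59 to 62 for WT. The labels do not say what this number stands for. If it is an order of the libraries, place in that order and genotype cannot be told apart. Levels of miR-33 itself were not analysed here, and the genotypes rest on the labels.

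**Figure D1:**
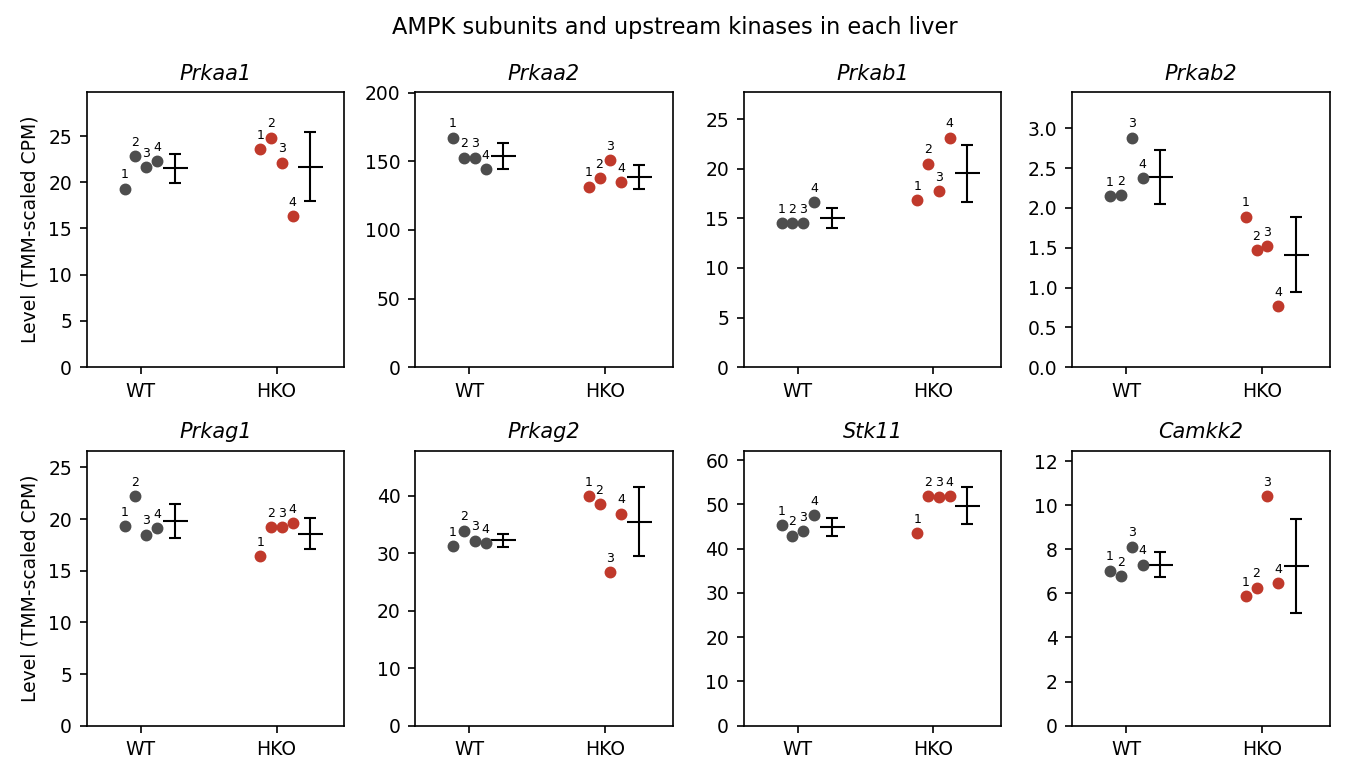
Level of each gene in each liver (y axis, TMM-scaled CPM from 0, and x axis, genotype), with 1 point per liver marked by its replicate number and the mean and SD of 4 livers beside the points. The WT and HKO points are apart for Prkab1 (higher in HKO) and Prkab2 (lower in HKO) and overlap for the other 6 genes.

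Of the catalytic subunits, Prkaa1 encodes AMPKα1, the form found in most tissues (chr15:5143861-5181900, plus strand). It measured 19.3, 22.8, 21.6 and 22.3 CPM in WT replicates 1 to 4 and 23.6, 24.8, 22.1 and 16.3 CPM in HKO replicates 1 to 4. HKO replicates 1 to 3 lay within or above the WT range, and HKO replicate 4 was the lowest of all 8 livers. Its log2 fold change was 0.01 ± 0.13 (SE, 95% interval of the fold 0.832 to 1.23, edgeR adjusted p = 0.969), and its sign depended on the liver left out. The only 8-base match to the miR-33 seed in these genes lies in this message.

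Prkaa2 encodes AMPKα2, the form that dominates in muscle and is abundant in liver (chr4:105029649-105109899, minus strand). WT replicates 1 to 4 measured 167.1, 152.5, 152.6 and 144.2 CPM, and HKO replicates 1 to 4 measured 131.4, 137.5, 150.8 and 134.6 CPM. HKO replicates 1, 2 and 4 lay below every WT liver, and HKO replicate 3 fell inside the WT range. The mean was 154 ± 9.51 CPM in the WT and 139 ± 8.55 CPM in the HKO livers (SD, n = 4 each). The log2 fold change of -0.15 ± 0.08 (SE) did not pass the test (edgeR adjusted p = 0.306), and its interval allowed a fold from 0.8 to 1.01.

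The scaffold subunits were the only genes whose livers did not overlap between the genotypes. Prkab1 encodes AMPKβ1, the main β form of mouse liver (chr5:116013590-116024429, minus strand). It measured 14.5, 14.5, 14.5 and 16.6 CPM in WT replicates 1 to 4 and 16.8, 20.5, 17.7 and 23.1 CPM in HKO replicates 1 to 4. All HKO livers exceeded all WT livers, although HKO replicate 1 and WT replicate 4 were nearly level. The mean was 15 ± 1.03 CPM in the WT and 19.5 ± 2.84 CPM in the HKO livers (SD, n = 4 each), a fold of 1.3 with an interval of 1.09 to 1.55. The log2 fold change was 0.38 ± 0.12 (SE), with an unadjusted p of 0.00751 and an adjusted p of 0.0933 in edgeR, so the gene was not called. Groups without overlap were found for 12.5% of all tested genes (5.34% higher and 7.19% lower in HKO), beside 2 of the 8 genes here.

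Prkab2 encodes AMPKβ2, the β form typical of muscle (chr3:97658212-97673068, plus strand). It was the lowest of the 8 genes, at 2.15, 2.16, 2.88 and 2.37 CPM in WT replicates 1 to 4 and 1.89, 1.47, 1.52 and 0.766 CPM in HKO replicates 1 to 4. Every HKO liver was below every WT liver. The values rest on few reads, from 26 to 58 counts in WT and from 9 to 28 in HKO livers. The exact Poisson 95% interval, which covers counting error only, ran from 1.4 to 3.15 CPM for WT replicate 1 and from 1.26 to 2.73 CPM for HKO replicate 1, so the nearest livers of the genotypes are not apart at this depth. The log2 fold change of -0.75 ± 0.28 (SE, fold 0.595, interval 0.392 to 0.905) had an unadjusted p of 0.0195 and an adjusted p of 0.156 in edgeR. Leaving out HKO replicate 4 gave -0.56 and leaving out HKO replicate 1 gave -0.91.

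Both γ subunit genes overlapped between the genotypes. Prkag1 encodes AMPKγ1, which carries the nucleotide-binding domains in most AMPK of liver (chr15:98812797-98831509, minus strand). It measured 19.3, 22.2, 18.5 and 19.1 CPM in the WT and 16.4, 19.2, 19.2 and 19.6 CPM in HKO replicates 1 to 4. Apart from WT replicate 2 and HKO replicate 1, the livers lay between 18.5 and 19.6 CPM. For the genotypes the log2 fold change was -0.09 ± 0.10 (SE, interval of the fold 0.808 to 1.09, edgeR adjusted p = 0.69), and leaving out WT replicate 2 gave -0.02, and HKO replicate 1, -0.03.

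Prkag2 encodes AMPKγ2, a longer γ form known for mutations that cause a heart muscle disease (chr5:24862735-25100643, minus strand). WT livers were close together at 31.2, 33.9, 32.2 and 31.7 CPM, and HKO livers spread wider, at 39.9, 38.5, 26.7 and 36.9 CPM. HKO replicates 1, 2 and 4 lay above every WT liver and HKO replicate 3 below every one. The log2 fold change was 0.14 ± 0.12 (SE, edgeR adjusted p = 0.573), and without HKO replicate 3 it was 0.25 with an adjusted p of 0.143, still not called. The counts of this gene are uncertain where 1500035N22Rik and Prkag2os1, which lie on the opposite strand within its range, share its reads, since the strand setting of the counting is not given in the sources used here. Prkag3, the γ form of skeletal muscle, had 7 counts over the 8 livers and lay between 0 and 0.169 CPM, at or under 3 counts in every liver, so it was not tested.

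Of the upstream kinases, Stk11 encodes LKB1, the kinase that phosphorylates AMPKα when energy falls (chr10:80115795-80130680, plus strand). It measured 45.3, 42.9, 43.9 and 47.5 CPM in the WT and 43.5, 51.8, 51.7 and 51.8 CPM in HKO replicates 1 to 4. HKO replicates 2 to 4 were nearly equal and above every WT liver, and HKO replicate 1 was inside the WT range. Its log2 fold change was 0.15 ± 0.08 (SE, interval of the fold 0.976 to 1.26, edgeR adjusted p = 0.367), and it rose to 0.21 with an adjusted p of 0.176 without HKO replicate 1. The count of this gene is uncertain in all 8 livers, because the counting split reads and left fractional values, and because Cbarp overlaps it on the opposite strand.

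Camkk2 encodes the calcium-dependent kinase that phosphorylates the same site of AMPKα (chr5:122731170-122779411, minus strand). It measured 7.03, 6.77, 8.11 and 7.30 CPM in the WT and 5.87, 6.25, 10.4 and 6.47 CPM in HKO replicates 1 to 4. HKO replicate 3 was the highest of the 8 livers, and the other HKO livers were below every WT liver. Between the genotypes the log2 fold change was -0.01 ± 0.19 (SE, interval of the fold 0.75 to 1.32, edgeR adjusted p = 0.989), and without HKO replicate 3 it was -0.24 with an adjusted p of 0.44.

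**Figure D2:**
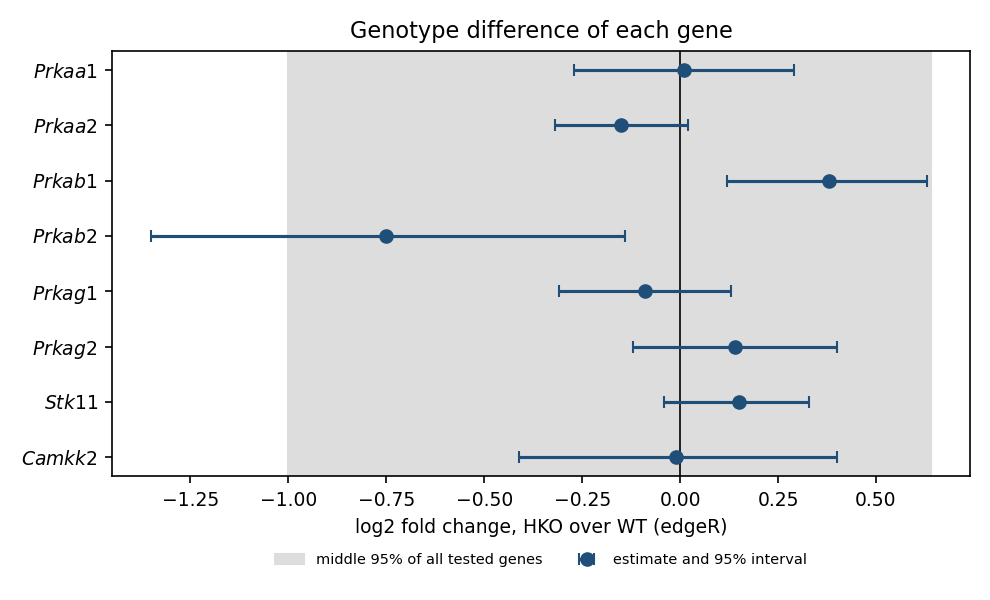
Log2 fold change (x axis, HKO over WT, edgeR) of each gene (y axis) with its 95% interval, and in grey the range that holds the middle 95% of all 12395 tested genes, from -1 to 0.64. All 8 estimates lie inside the grey range, and the intervals of Prkab1 and Prkab2 do not reach 0 before adjustment.

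To compare genes with each other, CPM were divided by the length of the merged exons in kilobases (RPKM). Over the 8 livers the order of levels was Prkaa2 at 18.4 ± 1.48 RPKM, Stk11 at 10.3 ± 0.865, Prkag1 at 8.82 ± 0.729, Prkab1 at 5.64 ± 1.02, Prkag2 at 5.23 ± 0.672, Prkaa1 at 4.64 ± 0.576, Camkk2 at 0.666 ± 0.131 and Prkab2 at 0.373 ± 0.127 RPKM (SD, n = 8). The message for AMPKα2 stood apart, since its lowest liver (16.5 RPKM) was above the highest liver of Stk11 (11.3 RPKM). Stk11 and Prkag1 overlapped in their ranges, as did Prkab1, Prkag2 and Prkaa1 with one another, and Camkk2 and Prkab2. The lowest liver of Prkaa1 (3.49 RPKM) was above the highest of Camkk2 (0.949 RPKM). With the longest annotated transcript as the length, Prkag2 passed Prkab1 (9.68 against 7.19 RPKM in WT), so the order of these 2 genes depends on the length used. By that length Prkaa1 averaged 4.62, Camkk2 1.5 and Prkab2 0.478 RPKM in WT. The overlaps of ranges given above are those by merged exons and also depend on the length.

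**Figure D3:**
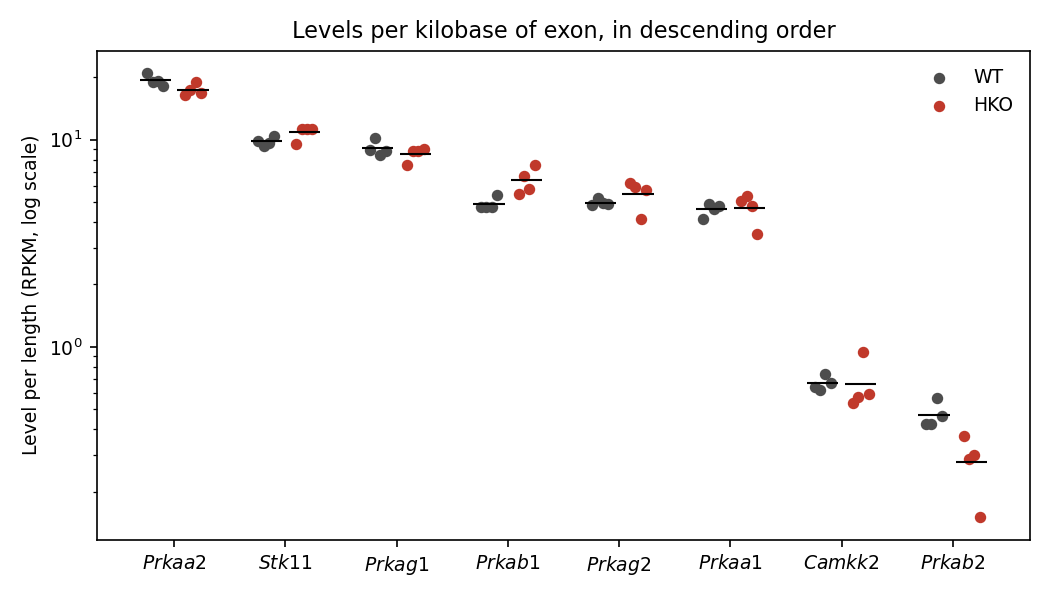
Level per length of merged exons in each liver (y axis, RPKM on a log scale) for the genes in descending order of their mean over 8 livers (x axis), with 1 point per liver, WT and HKO side by side, and a line at each mean. Prkaa2 lies above all other genes, and Camkk2 and Prkab2 lie under 1 RPKM in every liver.

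The share of each isoform within its class was taken per liver from the RPKM and is given as a description without a test. Prkaa2 made up 80.7% ± 1.98 of the RPKM of both α genes in WT and 78.9% ± 3.1 in HKO livers (SD, n = 4 each), with overlapping ranges of 79.1% to 83.5% and 76.4% to 82.9%. The summed α level was 24.0 ± 0.913 RPKM in WT and 22.1 ± 1.41 RPKM in HKO livers. The catalytic message was therefore mostly of the α2 form in both genotypes.

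Prkab2 made up 8.21%, 8.23%, 10.7% and 7.91% of the RPKM of both β genes in WT replicates 1 to 4 and 6.34%, 4.12%, 4.9% and 1.96% in HKO replicates 1 to 4. The ranges did not overlap, with means of 8.76% ± 1.29 and 4.33% ± 1.83 (SD, n = 4 each), which restates the values of Prkab1 and Prkab2 and is no further evidence. The summed β level was 5.37 ± 0.34 RPKM in WT and 6.65 ± 0.84 RPKM in HKO livers.

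Prkag2 made up 35.4% ± 1.29 of the RPKM of Prkag1 and Prkag2 in WT and 38.9% ± 5.43 in HKO livers (SD, n = 4 each). The HKO livers ran from 31.8% in replicate 3 to 44.9% in replicate 1, on either side of the WT range of 33.9% to 37.0%. With the longest transcript as the length the shares were 44.8% and 48.4%, so the level of the share depends on the length while its direction did not.

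**Figure D4:**
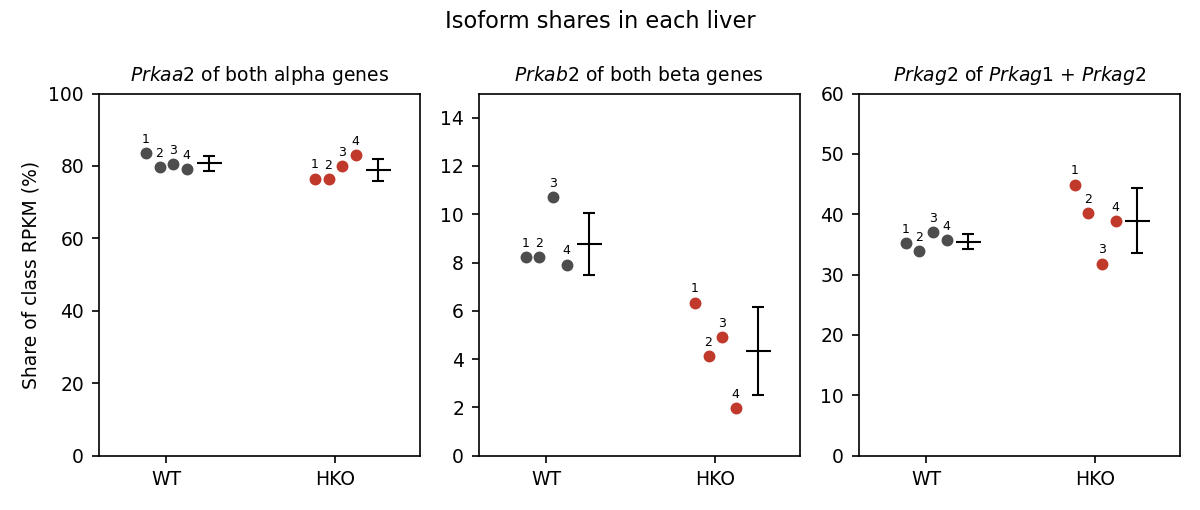
Share of Prkaa2 among both α genes, of Prkab2 among both β genes and of Prkag2 among Prkag1 and Prkag2 (y axes, percent of the RPKM of the class, each axis from 0, and x axis, genotype), with 1 point per liver marked by its replicate number and the mean and SD of 4 livers. The HKO livers lie below the WT livers for the β share and overlap them for the other shares.

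The genes whose levels most resembled those of the catalytic subunits were sought by Pearson's r of log2 CPM over the 8 livers among 11877 genes with a mean of at least 1 CPM. For Prkaa1 they were Dync2h1 (r = 0.946), Cnbd2 (r = 0.942) and E4f1 (r = 0.938), and for Prkaa2 they were Ttc8 (r = 0.963), Sel1l3 (r = 0.963) and 2310011J03Rik (r = 0.962). The 8 points share 2 genotypes, and these values, the highest of many, are a description only. The r between Prkaa1 and Prkaa2 was -0.10.

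The rest of the pathway was described by 75 genes in 5 lists, of which 69 were tested. In edgeR 1 was called higher and 2 were called lower, while DESeq2 called 1 higher and 5 lower and limma-voom called 0 higher and 1 lower. The 3 calls of edgeR are 4.35% of the tested pathway genes, beside the background of 5.03% in either direction (1.66% higher and 3.37% lower), and the median log2 fold change of the 69 genes was 0.00. At an unadjusted p under 0.05 edgeR had 10 of the 69 genes, beside 19.8% of all tested genes. By list these were 2 of 14 activators, 3 of 9 proteins acting on AMPK, 2 of 10 other LKB1 targets, 1 of 26 substrates and 2 of 10 nucleotide enzymes.

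EdgeR called 0 of the 14 tested LKB1 partners and other activators, of which 2 had an unadjusted p under 0.05, with log2 fold changes from -0.40 to 0.27 and a median of 0.02. Cab39, the MO25 scaffold that holds LKB1 in its active form, averaged 109 ± 2.79 CPM in the WT and 110 ± 0.946 CPM in the HKO livers (SD, n = 4 each). Strada, the pseudokinase partner of LKB1, had a log2 fold change of 0.17 ± 0.29 (SE, edgeR adjusted p = 0.808), which was 0.01 without HKO replicate 4 and 0.32 without WT replicate 3. DESeq2 called 1 gene of this list and limma-voom 0. The gene DESeq2 called was Fnip2, a partner of folliculin, which is named after its values were seen (log2 fold change -0.40 ± 0.12 in edgeR, adjusted p = 0.0919 in edgeR and 0.048 in DESeq2).

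Of the 9 tested phosphatases, ligases and other proteins that act on AMPK, the estimate was below 0 for 8. Among all 12395 tested genes 5993 were below 0, and the direction of the list was not tested. EdgeR called 1 gene of the list. This was Cidea, a lipid droplet protein that is neither a phosphatase nor a ligase and has been described to bind the β subunit in brown fat. It measured 1.24, 10.9, 0.647 and 6.18 CPM in the WT and 0.0675, 0, 0.0563 and 0 CPM in HKO replicates 1 to 4, with every HKO liver at or under 3 counts and an edgeR adjusted p of 0.00518 for the difference. It passed the expression filter through its WT livers alone, so a difference was built into its being tested, and it was not tested without WT replicate 4. No fold is given against so low a group, and the call was lost without HKO replicate 3 (adjusted p = 0.151) and in limma-voom (adjusted p = 0.0689). Ppm1a, a phosphatase that removes the activating phosphate from AMPKα, had a log2 fold change of -0.17 ± 0.08 (SE, edgeR adjusted p = 0.285).

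Of the 10 tested kinases that LKB1 also activates, edgeR called 1. Nuak2, a relative of AMPK, measured 4.79, 6, 8.31 and 7.30 CPM in the WT and 8.23, 11.2, 13.7 and 12 CPM in HKO replicates 1 to 4, with a log2 fold change of 0.77 ± 0.19 (SE, edgeR adjusted p = 0.0451). HKO replicate 1 lay just below WT replicate 3, and the other HKO livers were above every WT liver. The call lay near the threshold and held in 2 of 8 fits without a liver, those without WT replicate 3 or HKO replicate 1, where the adjusted p ranged over all 8 fits from 0.0237 to 0.143. It was lost in limma-voom (adjusted p = 0.0701) and, in edgeR, under total count scaling (adjusted p = 0.0825). Sik2, a salt-inducible kinase that acts on lipid synthesis, had a log2 fold change of -0.33 ± 0.19 (SE, edgeR adjusted p = 0.374).

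EdgeR called 0 of the 26 AMPK substrates, of which 1 had an unadjusted p under 0.05, and their median log2 fold change was 0.01. DESeq2 called 1 and limma-voom 0. The gene DESeq2 called was Lipe, the hormone-sensitive lipase, also named after its values were seen (log2 fold change -0.66 ± 0.19 in edgeR, adjusted p = 0.0695 in edgeR and 0.0285 in DESeq2). The fatty acid synthesis enzyme gene Acaca measured 153.9, 122.0, 75.5 and 72.6 CPM in WT replicates 1 to 4, and 69.9 to 94.1 CPM in the HKO livers. Its log2 fold change was -0.36 (edgeR adjusted p = 0.503), and -0.12 without WT replicate 1. Acacb, whose product makes the malonyl-CoA that restrains mitochondrial fatty acid uptake, had a log2 fold change of -0.98 ± 0.47 (SE, edgeR adjusted p = 0.321), and of -0.63 without WT replicate 1. Ulk1, the kinase that starts autophagy, had a log2 fold change of 0.15 ± 0.08 (SE, edgeR adjusted p = 0.323). Ppargc1a, the coactivator of mitochondrial genes, had 0.10 ± 0.21 (SE, edgeR adjusted p = 0.858), which turned to -0.19 without HKO replicate 4.

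Of the 10 tested adenine nucleotide enzymes, edgeR and limma-voom each called 1. Nt5e, the CD73 enzyme that turns AMP into adenosine outside the cell, measured 20.1, 25.9, 17.7 and 11.5 CPM in the WT and 9.11, 9.65, 4.85 and 8.26 CPM in HKO replicates 1 to 4. Every HKO liver was below every WT liver, and the log2 fold change was -1.24 ± 0.28 (SE, edgeR adjusted p = 0.0373). The call held in 1 of 8 fits without a liver, the one without WT replicate 4, with adjusted p from 0.0104 to 0.102, and was lost in edgeR without the expression filter (adjusted p = 0.056). DESeq2 also called Nt5c2, a cytosolic nucleotidase named after its values were seen (log2 fold change -0.47 ± 0.13 in edgeR, adjusted p = 0.0637 in edgeR and 0.0312 in DESeq2). Ampd2, the liver AMP deaminase, had a log2 fold change of -0.07 ± 0.15 (SE, edgeR adjusted p = 0.854).

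**Figure D5:**
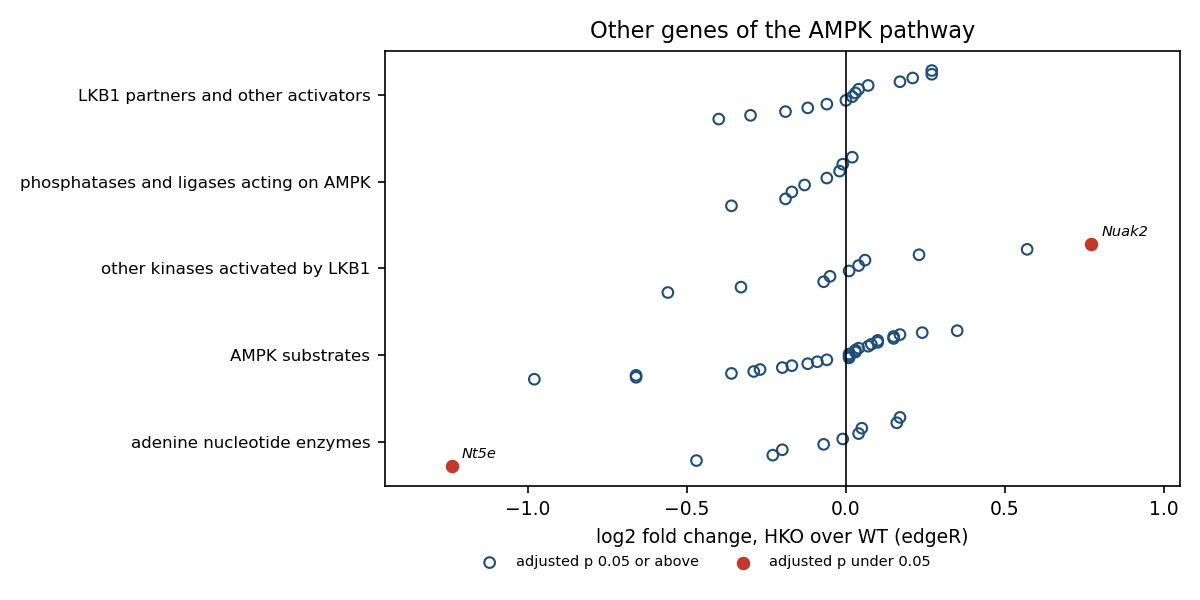
Log2 fold change (x axis, HKO over WT, edgeR) of each tested gene of the 5 pathway lists (y axis), with filled points for genes at an adjusted p under 0.05 and open points for the others, where height within a list only separates the points. Most points lie near 0, Nuak2 and Nt5e are filled, and Cidea is left out because no fold can be given for it.

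Matches to the miR-33 seed were also set beside the calls across the whole table. Of 272 tested genes with an 8-base match, like Prkaa1, 5 were called higher (1.84%) and 13 lower (4.78%), with a median log2 fold change of 0.02. Of 9517 tested genes without a match, 1.63% were called higher and 3.35% lower, with a median of 0.01. Of 2037 tested genes with any match of 7 or 8 bases, as Prkaa2 and Prkab2 also have, 2.01% were called higher and 3.88% lower, with a median of 0.02. The differences between these shares were not tested, and the sets were not matched for 3'UTR length.

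Markers of the cells in whole liver were read beside these results. The summed level of 6 hepatocyte markers ran from 82800 to 115000 CPM in the WT and from 76700 to 130000 CPM in the HKO livers. EdgeR nevertheless called 3 of the 6 (Cps1, Serpina1c and Fgb) higher, beside 1.66% of all tested genes, and the overlapping sums do not show this. The summed levels of the Kupffer cell, stellate cell, sinusoidal endothelial cell, cholangiocyte, lymphocyte, neutrophil and erythroid lists overlapped between the genotypes. EdgeR called none of the tested genes of these lists. Only 3 of 6 cholangiocyte, 2 of 6 neutrophil and 0 of 6 lymphocyte genes were tested, so the lymphocyte list could give no call. Lymphocyte sums were at most 3.58 CPM. The 3 listed skeletal muscle markers, which include Prkag3, summed to 0.197 to 0.349 CPM in the WT and 0.511 to 0.618 CPM in the HKO livers. These sums rest on few reads, as 3 counts stood for 0.16 to 0.246 CPM, and 0 of the 3 markers were tested. The part of cell makeup in the values of the AMPK genes was not tested.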

How the data were processed

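RNA-Seq of 4 WT and 4 HKO livers was analysed. The authors deposited estimated counts per gene, aligned with STAR and quantified by Partek's expectation-maximization method per the submitters' processing notes and the table's title, without normalization. Reads that fit several genes are split by this method, and 83.9% of values were whole (within 0.001). Genome build and versions are not given in the sources used here. Of 17785 symbols found in RefSeq, 82.5% shared a start or end with GRCm38.p6, so coordinates were read on GRCm38, and gene ends are as listed (65.3% were RefSeq's end plus 1). Since the labels give rRNA depletion and also a kit for small RNA, the library type is uncertain. Genotype and replicate number came from the labels. The descriptions of the WT livers all share the same leading number, while their titles and column headers carry different ones. Columns were matched to livers by title.

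Estimated counts were rounded. The test was edgeR 4.0.16 (R 4.3.3) with TMM scaling, its default filter (minimum count 10), robust dispersions and the quasi-likelihood F test, adjusted by Benjamini-Hochberg over 12395 genes. The standard error is the absolute log2 fold change over the root of F. Log2 CPM adds a prior count of 2. Lengths and 3'UTRs came from GENCODE M21. p-values measure the spread between these mice. On simulated counts for 12395 genes, 200 of them changed, edgeR recovered 90% of changes of 1 and 95% of changes of 2 on the log2 scale, and 5.61% of its calls were false. Alternatives were limma-voom (limma 3.58.1), DESeq2 1.42.0, scaling by RLE, upper quartile or total count, other filters, the replicate number as a block, an added fold above 1.5, each liver left out, other lengths and matches, and, chosen after seeing the data, edgeR's legacy method. Python 3.11.15, numpy 2.4.6, pandas 2.3.3, scipy 1.17.1 and matplotlib 3.10.9 were used.

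The 8 genes, the pathway and marker lists and the tests were chosen with earlier results of these data known. Text names the 8 genes, Prkag3, every pathway gene called by edgeR, textbook genes of each list whatever their values (some are not reported here), and the 3 genes most like each catalytic subunit. Fnip2, Lipe and Nt5c2 were added after their values were seen. miR-33 levels were not analysed here.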

Additional observations from a re-analysis of the deposited data

Results flagged for a closer look

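Among 22 groups of 4 livers examined for a liver far from the others by Dixon's criterion, 5 were found, where chance gives about 1.1. The groups include isoform shares made from the same genes, so they are not independent. Prkab1 was 16.6 CPM in WT replicate 4 and 14.5 CPM in each other WT liver. Its exact Poisson 95% interval in WT replicate 4, 14.6 to 18.7 CPM, overlapped those of the other WT livers. Prkag1 was 16.4 CPM in HKO replicate 1 and 19.2 to 19.6 CPM in the other HKO livers. Stk11 was 43.5 CPM in HKO replicate 1 and 51.7 to 51.8 CPM in the others. Camkk2 was 10.4 CPM in HKO replicate 3 and 5.87 to 6.47 CPM in the others. The share of Prkab2 among both β genes was 10.7% in WT replicate 3 and 7.91% to 8.23% in the other WT livers. HKO replicate 1 is the liver concerned in 2 of the 5. The causes were not tested.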

How the results depend on the processing

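None of the 8 genes was called in any alternative, and the lowest adjusted p was 0.0626 for Prkab1 without HKO replicate 1 (edgeR). Requiring 10 counts in every liver left Prkab2 untested. The log2 fold change of Prkaa1 turned to -0.07 under total count scaling and ran from -0.05 to 0.13 without single livers, and that of Camkk2 ran from -0.24 to 0.08. Total count scaling moved the median of all genes by -0.09, the share of calls that were higher from 33% to 16.1%, and Cab39 to -0.07. Without single livers Ppargc1a ran from -0.19 to 0.22 and Ampd2 from -0.17 to 0.04.

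Of all genes, 206 were higher and 418 lower in HKO livers. DESeq2 gave 385 and 629, a fold above 1.5 gave 107 and 260, and total count scaling gave 119 and 621. Fits without a liver gave 61 to 230 higher and 151 to 368 lower, the fewest without WT replicate 2. Of the pathway genes, 1 was higher and 2 lower. The higher count was 0 in limma-voom and under total count scaling, and 0 to 1 without single livers (0 without WT replicate 1, 2 or 4 or HKO replicate 2, 3 or 4). The lower count was 5 in DESeq2, 1 in limma-voom, 1 without a filter, and 1 with 10 counts in every liver (Cidea was not tested). It was 0 to 2 without single livers (0 without HKO replicate 3, and 1 without WT replicate 1, 2 or 3 or HKO replicate 2). The count of 2 without WT replicate 4, HKO replicate 1 or HKO replicate 4 was not Cidea and Nt5e, but held another gene of the lists. Cidea was not tested without WT replicate 4. Nt5e had an edgeR adjusted p of 0.0712 without HKO replicate 1 and of 0.0966 without HKO replicate 4. The longest transcript as length gave shares of 6.24% for Prkab2 in WT, and 44.8% and 48.4% for Prkag2. Counting 8-base matches only left 1 gene, Prkaa1. The causes were not tested.

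The genotypes share replicate numbers 1 to 4 of different mice. Deviations of same-numbered livers correlated by -0.15 to 0.01, and those of differently numbered livers by -0.21 to 0.24. These values give no sign that the numbers pair the livers. With 4 livers per genotype they cannot settle it, and a shared cage, litter or preparation was not tested. The replicate block gave 147 genes higher and 309 lower, 2 pathway genes higher, and 0 of the 8 genes. Depth limits Prkab2 most, at 9 to 58 counts per liver.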
